A study of Rattus norvegicus with 10 samples.

Results

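The 9 transcripts described here belong to the muscle sarcomere and were measured in rat tibiae after a single session of mechanical loading. They were taken by accession from the 4803 accessions of the array, and all 9 were found. They comprised a troponin-C (J00793), the troponin I genes Tnni2 (NM_017185, fast skeletal), Tnni1 (NM_017184, slow skeletal) and Tnni3 (NM_017144, cardiac), the cardiac troponin T gene Tnnt2 (NM_012676), the myosin light chains Myl11 (NM_012605, fast skeletal) and Myl3 (NM_012606, ventricular and slow skeletal), and the myosin heavy chains Myh3 (NM_012604, embryonic) and Myh6 (NM_017239, cardiac alpha). RefSeq gave the symbols of 8 of them. J00793 was named troponin-C by the study, without saying whether it is the fast or the slow form.

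Right tibiae of female Wistar rats, 12 weeks old, underwent 4-point bending (LOAD) or were squeezed between opposed pads without bending (SHAM). LOAD was 300 cycles at 2 Hz with a peak setting of 60 N. Each array held 1 treated right tibia and the untreated left tibia of the same rat, the contralateral control, in the other dye, and there were 5 LOAD and 5 SHAM arrays, with the tibiae taken 6 hours after the session. The rats carried no genetic change. The 2 channels of each array gave 20 tibiae. With so few arrays, precision is limited throughout.

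Striated muscle contracts when myosin heavy chains, steadied by their light chains, pull on thin filaments. The troponin complex gates this step, with troponin-C binding calcium, troponin I holding the filament off and troponin T tying the complex to tropomyosin. Fast, slow, embryonic and cardiac fibers use different genes for the same subunit, and bone cells are not known for building sarcomeres. According to the methods, both ends, the periosteum and the marrow were removed before the shaft was frozen and pulverized. The osteocyte genes Mepe, Pdpn and Phex carried signal in 20 of 20 channels each.

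Some arrays stand apart in their labels or their quality. SHAM 1 carries LOAD in 1 of its label fields but SHAM in the title, the description and the file header, and it was kept with the SHAM arrays. The file headers give a specimen number for each tibia, and the 2 numbers of an array follow each other on 8 of 10 arrays. They do not on LOAD 4 and SHAM 4, where each treated tibia is followed in number by the control on the other array. Which of the 2 pairings is right was not tested, and the values below are given as labelled and, where it matters, with these 2 controls exchanged and without both arrays. LOAD 4 also had 166 spots under the confidence minimum, the most of any array against a lowest of 32, and the smallest share of spots on in both channels, 52.4% against up to 81.6%. The log2 ratios of SHAM 2 and SHAM 5, which carry the treated tibia in different dyes, correlated at -0.64 over all genes, and the lowest correlation between arrays with the treated tibia in the same dye was -0.33. The directions are those of the labels.

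The sequence around the start of 4 members is shown because Myl11 and Tnni2 varied together over the arrays, Tnni1 less so and Myl3 not. Whether these sequences have any part in that was not tested, and all genes of an array share the same pair of RNAs. Each line gives 300 bases from 250 before to 50 after the gene's start in RefSeq (GRCr8). Capitals mark CANNTG, the E-box core that myogenic factors such as MyoD are known to bind, which reads the same on both strands.
Myl11 (chr1:191260039-191260338, + strand): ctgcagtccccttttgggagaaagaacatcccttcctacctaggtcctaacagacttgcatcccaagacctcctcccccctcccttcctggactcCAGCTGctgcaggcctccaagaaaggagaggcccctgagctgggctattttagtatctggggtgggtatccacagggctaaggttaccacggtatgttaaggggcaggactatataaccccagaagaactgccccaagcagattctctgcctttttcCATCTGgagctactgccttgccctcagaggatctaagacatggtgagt
Tnni2 (chr1:207024240-207024539, + strand): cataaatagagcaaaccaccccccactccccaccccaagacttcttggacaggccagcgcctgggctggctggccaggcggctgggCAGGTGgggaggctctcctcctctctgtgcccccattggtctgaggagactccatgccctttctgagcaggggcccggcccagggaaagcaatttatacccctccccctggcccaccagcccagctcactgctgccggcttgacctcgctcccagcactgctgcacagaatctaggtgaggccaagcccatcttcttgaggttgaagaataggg
Tnni1 (chr13:49781279-49781578, + strand): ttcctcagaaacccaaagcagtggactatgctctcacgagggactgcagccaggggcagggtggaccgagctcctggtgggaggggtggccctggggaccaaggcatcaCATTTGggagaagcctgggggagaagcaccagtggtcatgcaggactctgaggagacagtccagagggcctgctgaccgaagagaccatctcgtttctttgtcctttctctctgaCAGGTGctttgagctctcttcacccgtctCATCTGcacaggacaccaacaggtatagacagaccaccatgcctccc
Myl3 (chr8:119616844-119617143, + strand): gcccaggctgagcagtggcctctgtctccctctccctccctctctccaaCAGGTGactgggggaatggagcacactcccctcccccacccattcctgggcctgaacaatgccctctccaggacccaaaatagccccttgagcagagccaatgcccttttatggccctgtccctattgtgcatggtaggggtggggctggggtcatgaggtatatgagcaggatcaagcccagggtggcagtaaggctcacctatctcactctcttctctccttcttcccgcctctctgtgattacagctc

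CANNTG was found 2 times at Myl11, 1 time at Tnni2, 3 times at Tnni1 and 1 time at Myl3, and 72.1% of the 33469 promoters of that length hold at least 1. Of the other members, Myh3 and Myh6 had 1 match each and Tnni3 had 0. Tnnt2 had 4 matches at 1 start and 1 at another. TATAAA, searched on both strands and in no overlap with CANNTG, was found at Tnni2 and Myh3 and is in 14.2% of all promoters. The pattern CTA, any 4 bases, then TAG was searched on both strands as a rough form of the MEF2 core. It was found at 0 of the 8 genes and is in 3.84% of all promoters, and neither value is a count of MEF2 sites. The CArG box was found at Myl3 and is in 1.64%.

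The 9 transcripts differed in whether they were detected at all. P ON is the probability, given by the image software for each channel, that a spot carries signal, and a value of at least 0.5 was counted as signal. Tnni2, Tnni1, Myh3 and Myh6 carried signal in 20 of 20 channels each. Myl3 did so in 13 channels, Myl11 in 12 and troponin-C in 9. The cardiac genes Tnnt2 and Tnni3 did so in 5 and 1, and neither reached a P ON of 0.9 in any channel. Of the members known best from heart, only Myh6 was thus on in every tibia, and the heart marker Nppa was on in 2 of 20 channels. The probe sequences were not used here, so cross-hybridization between heavy chains was not tested.

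**Figure D1:**
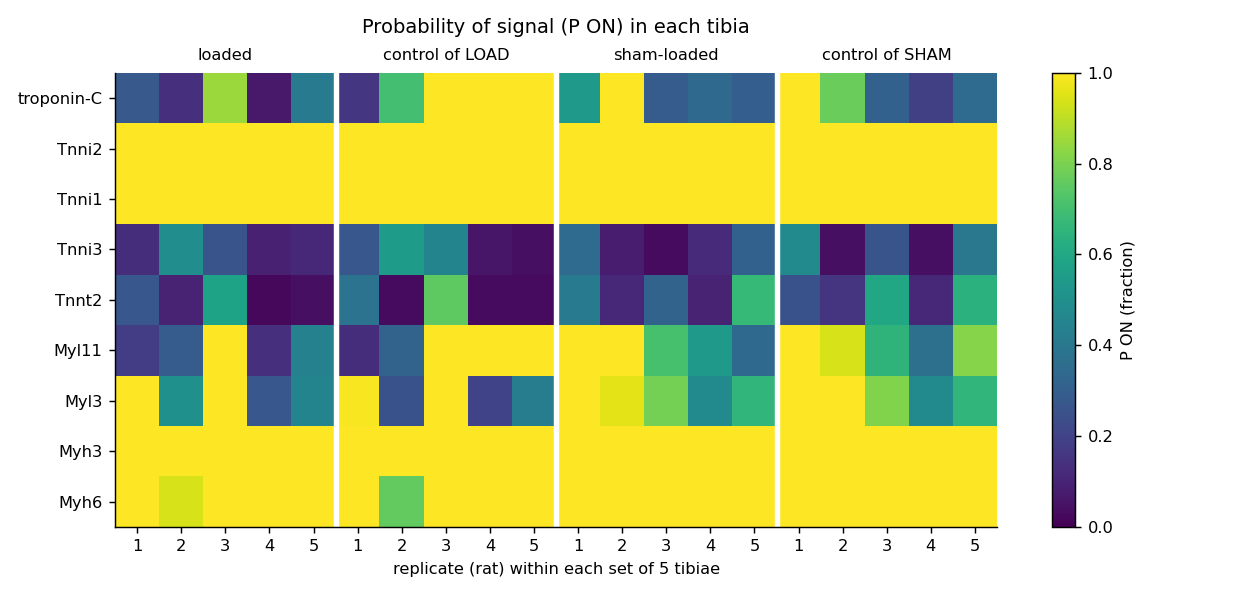
Probability of signal (P ON, from 0 to 1, colour scale) of the 9 transcripts (vertical axis) in each of 20 tibiae (horizontal axis, replicates 1 to 5 in each of 4 sets). Tnni2, Tnni1, Myh3 and Myh6 were on in all 20 tibiae. Troponin-C and Myl11 both reached 1 in controls 3, 4 and 5 of LOAD, control 1 of SHAM and sham-loaded tibia 2. Myl11 also reached 1 in loaded tibia 3 and sham-loaded tibia 1.

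Troponin-C, the calcium sensor of the thin filament, was low in 15 of the 20 tibiae, all 5 loaded ones among them, and high in the other 5. Its normalized log2 intensity in LOAD 1 to 5 was 6.78, 6.57, 6.81, 7.13 and 7.39 in the loaded tibiae, against 6.57, 7.52, 10.18, 10.93 and 9.39 in their contralateral controls. In SHAM 1 to 5 it was 6.73, 10.15, 6.66, 6.66 and 6.68 in the sham-loaded tibiae, against 8.68, 7.52, 6.44, 6.58 and 6.72 in their controls. Thus 5 of the 20 tibiae lay above 8, the controls of LOAD 3, 4 and 5, the control of SHAM 1 and the sham-loaded tibia of SHAM 2, and none of the 5 loaded tibiae did. The other 15 tibiae lay at or below 7.52, with a gap of 1.16 to the next. In RNA of a pulverized shaft, fewer muscle fibers and less RNA for each fiber cannot be told apart.

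Myl11, the regulatory light chain of fast fibers, had the same 5 tibiae above 8. In LOAD 1 to 5 its log2 intensity was 6.77, 6.81, 7.25, 7.29 and 7.43 in the loaded tibiae, against 6.68, 6.9, 10.06, 11.14 and 9.11 in their controls. In SHAM 1 to 5 it was 7.34, 10.05, 7.08, 6.94 and 6.57 in the sham-loaded tibiae, against 8.95, 7.6, 6.72, 6.92 and 6.84 in their controls. The remaining 15 tibiae lay at or below 7.6. P ON was 1 for both genes in each of the 5 high tibiae, while in the loaded tibiae troponin-C and Myl11 reached 0.5 in LOAD 3 only, so that 4 of the 5 loaded tibiae were not called on for either gene.

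From the lowest to the highest of the 20 tibiae Myl11 spanned 4.57 log2 units and troponin-C 4.49, while the median span of 4472 genes was 1.26. The lowest tibiae had a P ON of 0.34 for Myl11 and 0.31 for troponin-C, so that neither span has an exact size. The other members spanned between 1.07 and 1.82.

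**Figure D2:**
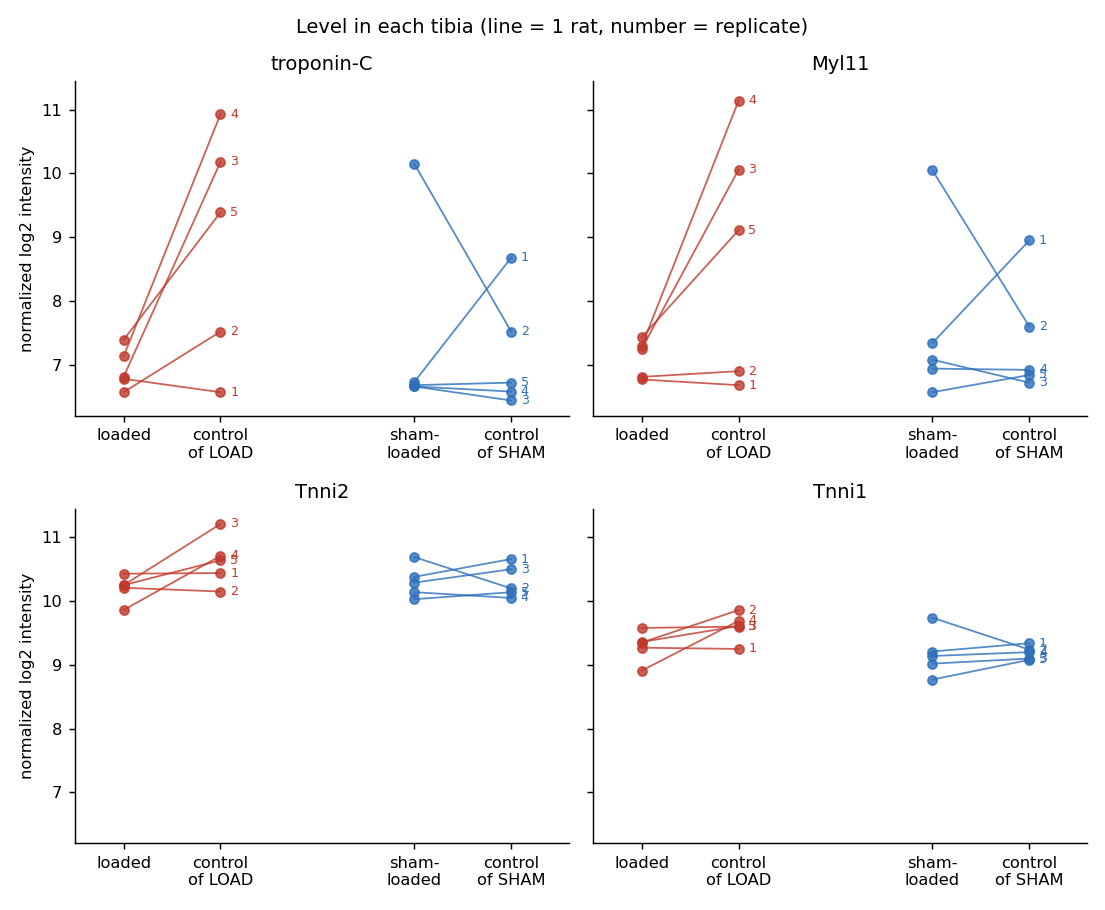
Normalized log2 intensity (vertical axis) of troponin-C, Myl11, Tnni2 and Tnni1 in each treated tibia and its contralateral control (horizontal axis), with a line for each rat and its replicate number. For troponin-C and Myl11 the same 5 tibiae lie above 8 and none of them is a loaded tibia, while Tnni2 and Tnni1 lie between 8.77 and 11.21 throughout.

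Tnni2, the inhibitory subunit of fast fibers, was on in every tibia and moved over a narrower range. In LOAD 1 to 5 its log2 intensity was 10.43, 10.21, 10.25, 9.86 and 10.25 in the loaded tibiae, against 10.44, 10.15, 11.21, 10.71 and 10.64 in their controls. In SHAM 1 to 5 it was 10.38, 10.69, 10.29, 10.14 and 10.03 in the sham-loaded tibiae, against 10.66, 10.2, 10.5, 10.05 and 10.14 in their controls. The controls of LOAD 3, 4 and 5 were above every loaded tibia here as well, and the sham-loaded tibia of SHAM 2 was the highest of its 5.

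Tnni1, the inhibitory subunit of slow fibers, had 9.27, 9.35, 9.36, 8.91 and 9.58 in the loaded tibiae of LOAD 1 to 5, against 9.25, 9.86, 9.61, 9.69 and 9.6 in their controls. In SHAM 1 to 5 it had 9.21, 9.74, 9.02, 9.14 and 8.77 in the sham-loaded tibiae, against 9.34, 9.24, 9.1, 9.2 and 9.08 in their controls. Here the highest tibia was the control of LOAD 2, which was not among the 5 high tibiae of troponin-C and Myl11.

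The log2 ratio of the treated tibia to its own control asks what changed within a rat. For troponin-C it was 0.21, -0.95, -3.36, -3.8 and -2 in LOAD 1 to 5, with a mean of -1.98 ± 1.66 (SD, n = 5). The 95% confidence interval of this mean was -3.31 to -0.65, and 4 of 5 arrays were lower. For Myl11 it was 0.1, -0.09, -2.81, -3.85 and -1.68, with a mean of -1.67 ± 1.71 (SD, n = 5) and an interval of -2.96 to -0.38. These 2 SDs ranked 3 and 1 among the 4707 genes tested, so that the LOAD arrays disagreed about these genes more than about almost any other. The same held in SHAM, where the SDs were 1.62 and 1.47, ranks 5 and 10. The most negative ratio of both genes came from LOAD 4, the array with the most spots under the confidence minimum, and what its quality adds to them was not tested.

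The skeletal troponin I genes had smaller ratios with the same sign. Tnni2 had -0.01, 0.07, -0.96, -0.85 and -0.39 in LOAD 1 to 5, with a mean of -0.43 ± 0.47 (SD, n = 5), or 0.744-fold, and 4 of 5 arrays lower. Tnni1 had 0.02, -0.51, -0.25, -0.78 and -0.02, with a mean of -0.31 ± 0.34 (SD, n = 5), or 0.808-fold, and 4 of 5 arrays lower. Both means were smaller than the spread between the arrays.

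The threshold was a false discovery rate below 20%, and 0 of the 9 members and 0 of 4707 genes reached it in LOAD, or 0% (limma, adjusted p = 1 for each member). Unadjusted p-values in limma were 0.00723 for troponin-C, 0.0158 for Myl11, 0.0193 for Tnni2 and 0.0384 for Tnni1. These 4 of 9 members were lower with an unadjusted p under 0.05, where 1.72% of all genes were. Of the 9 members, 6 were lower on at least 4 of 5 arrays, as were 15.7% of all genes. The median of the 9 members was -0.14, beside -0.01 over all genes. Troponin-C was picked out by the study on these same arrays, so that its ratio is no independent evidence of a direction. Without LOAD 3 or without LOAD 4, 1 member, troponin-C, was left with an unadjusted p under 0.05, and without LOAD 4 the mean of Tnni1 was -0.19. Without normalization troponin-C (-2.18, adjusted p = 5.4e-07) and Myl11 (-1.86, adjusted p = 7.5e-05) passed in limma, as 9 genes did, but limma then used a standard error of 0.34 for every gene, against 0.96 and 0.92 from the values of these 2 genes.

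Embryonic Myh3 rested on single arrays in LOAD. It ranged between -0.81 in LOAD 4 and 0.57 in LOAD 5, with a mean of -0.14 ± 0.5 (SD, n = 5) and a confidence interval of -0.45 to 0.18. Without LOAD 5 its mean was -0.31 (limma, unadjusted p = 0.0219) and without LOAD 4 it was 0.03. Of the cardiac members, Myh6 averaged -0.04 ± 0.27, Myl3 0.07 ± 0.27, Tnni3 -0.01 ± 0.24 and Tnnt2 0 ± 0.18 (SD, n = 5 each). Tnni3 and Tnnt2 were mostly not detected, so that their ratios say little about either gene.

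**Figure D3:**
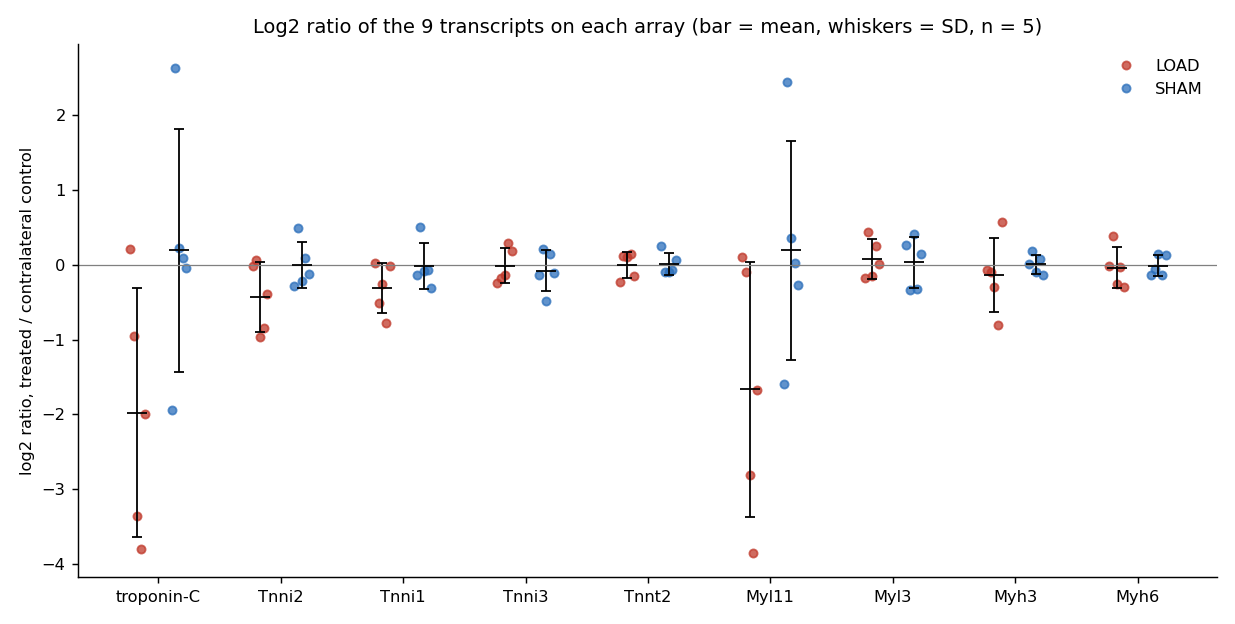
Log2 ratio of the treated tibia to its contralateral control (vertical axis) for the 9 transcripts on each LOAD and SHAM array, with the mean (bar) and SD (whiskers) of 5 arrays. The values of troponin-C and Myl11 run between -3.85 and 2.63 and overlap between LOAD and SHAM, and the other 7 members stay between -0.96 and 0.57.

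Sham loading gave ratios on both sides of 0. In SHAM 1 to 5 troponin-C had -1.94, 2.63, 0.22, 0.09 and -0.04, with a mean of 0.19 ± 1.62 (SD, n = 5), and Myl11 had -1.6, 2.45, 0.36, 0.02 and -0.27, with a mean of 0.19 ± 1.47. The 2 large ratios of each gene had opposite signs and came from SHAM 1 and SHAM 2. Tnni2 averaged 0 ± 0.31 and Tnni1 -0.02 ± 0.31. In limma 0 of the 9 members reached the false discovery rate or an unadjusted p under 0.05, the second of which 0.68% of all genes did. Only Tnni1 was lower on at least 4 of 5 arrays, as were 13.3% of all genes. The mean of troponin-C was -0.42 without SHAM 2 and 0.72 without SHAM 1.

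LOAD set against SHAM asks what bending added to squeezing. The difference in log2 ratio was -2.17 for troponin-C (standard error 0.86, confidence interval -4.06 to -0.28) and -1.86 for Myl11 (standard error 0.84, interval -3.69 to -0.03). It was -0.42 for Tnni2 (interval -0.91 to 0.06) and -0.29 for Tnni1 (interval -0.7 to 0.12), the last of which was -0.16 without SHAM 2, -0.17 without LOAD 4 and -0.09 with the dyes of LOAD 2 exchanged. Troponin-C and Myl11 had unadjusted p-values of 0.0276 and 0.0467 and an adjusted p of 0.999 in limma, and these 2 of 9 members stand beside 0.914% of all genes that were lower at that level. An exact permutation test over the arrays, 2-sided, gave p = 0.0794 for troponin-C, 0.111 for Myl11, 0.159 for Tnni2 and 0.222 for Tnni1, where 5 against 5 arrays allow no p below 0.00794. The LOAD and SHAM ratios overlapped for all 9 members. How many of all genes did so was not counted, so this does not tell the members from other genes. Without normalization troponin-C passed in limma (-2.02, adjusted p = 0.08), again with 1 standard error shared by all genes. Without LOAD 3, LOAD 4 or SHAM 2, 0 members had an unadjusted p under 0.05.

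Arrays were read in 4 scan batches, each with both groups. The difference, LOAD minus SHAM, was -0.71, -3.58, -3.88 and -1.96 for troponin-C within batches 1 to 4, and -0.42, -3.17, -3.87 and -1.42 for Myl11. Tnni2 gave -0.07, -0.76, -0.94 and -0.27, and Tnni1 gave -0.43, -0.17, -0.72 and 0.28. Batch 1 held 2 arrays of each group and the others 1, so that 3 of the 4 values compare single arrays.

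The difference depended on how the arrays numbered 4 are paired. With the controls exchanged, troponin-C had 0.55 in LOAD 4, where the labels give -3.8, and -4.27 in SHAM 4, where they give 0.09. Its mean was then -1.11 ± 1.61 in LOAD and -0.68 ± 2.58 in SHAM (SD, n = 5 each), a difference of -0.43 (exact permutation p = 0.762). For Myl11 the means were -0.82 ± 1.37 in LOAD and -0.65 ± 2.46 in SHAM, a difference of -0.17 (exact permutation p = 0.873). In this pairing no member had an unadjusted p under 0.05 in LOAD. Without both arrays numbered 4 the difference was -1.74 for troponin-C and -1.36 for Myl11 (exact permutation p = 0.2 and 0.257, 4 against 4 arrays). The loaded tibiae are the same in either pairing. The exchange moves the control of LOAD 4 (troponin-C level 10.93) to a SHAM rat and that of SHAM 4 (6.58) to a LOAD rat. It thus alters which group the high control belongs to.

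Single channels ask on which side the difference lay, but every interval below includes 0, so they do not settle it. Between the contralateral controls, LOAD minus SHAM, troponin-C differed by 1.73 (standard error 1.01, interval -0.36 to 3.83) and Myl11 by 1.37 (standard error 0.98, interval -0.68 to 3.42). The means of troponin-C were 8.92 ± 1.82 in the controls of LOAD and 7.19 ± 0.93 in the controls of SHAM (SD, n = 5 each). Between the treated tibiae the loaded minus the sham-loaded mean was -0.44 for troponin-C (interval -2.53 to 1.66) and -0.49 for Myl11 (interval -2.54 to 1.56). In either comparison 0 of the 9 members had an unadjusted limma p under 0.05, where 5.23% of 4472 genes did between controls and 4.61% between treated tibiae, and 0 genes passed the false discovery rate. With the controls of the arrays numbered 4 exchanged, the difference between controls was -0.01 for troponin-C and -0.32 for Myl11. Without SHAM 2, the treated tibiae differed by 0.25 and 0.12.

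Within the sets of tibiae the spread of these 2 genes was uneven. The 5 loaded tibiae had an SD of 0.32 for troponin-C and 0.3 for Myl11, ranks 2784 and 3031 of 4472 genes. Their 5 controls had SDs of 1.82 and 1.95, ranks 20 and 13, and the sham-loaded tibiae had 1.55 and 1.4, ranks 12 and 19. The controls of SHAM had 0.93 for both, ranks 50 and 51. The low spread of the loaded tibiae is among values that were mostly not detected.

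Over the 10 arrays the ratios of troponin-C, Myl11 and Tnni2 followed each other. Pearson's r with troponin-C was 0.98 for Myl11 (Spearman's rho 0.99; permutation p = 6e-05 and 4e-05, adjusted p = 0.00048 and 0.00032 over 8 relations). For Tnni2 r was 0.93 and rho 0.81 (permutation p = 0.00066 and 0.00722, adjusted 0.00264 and 0.0289). Without LOAD 4 and SHAM 2, the arrays farthest from the median of troponin-C, r was 0.97 for Myl11 and 0.84 for Tnni2. Without both arrays numbered 4, r was 0.98 for Myl11 and 0.9 for Tnni2. With the controls of these arrays exchanged, it was 0.99 and 0.86. The exchange moves all genes of a control together, so that r in that setting is no separate test of these relations. All genes of an array share the same pair of RNAs, and the scan batches, of 4, 2, 2 and 2 arrays, are too small for an r of their own.

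The other members followed troponin-C less closely over these arrays. Tnni1 had an r of 0.75 and a rho of 0.65 (permutation p = 0.0139 and 0.049, adjusted 0.0372 and 0.131), but an r of 0.18 without LOAD 4 and SHAM 2. Its r was 0.64 without both arrays numbered 4 and 0.66 with their controls exchanged, so that its relation depends on which arrays are kept. Myh3 had an r of 0.47, Myh6 0.3, Tnni3 -0.14, Myl3 -0.35 and Tnnt2 -0.56 (rho 0.43, 0.43, -0.33, -0.31 and -0.58), with permutation p-values of 0.0873 or higher before adjustment. Tnni2 and Myl11 had an r of 0.94 with each other, and Tnni1 and Myh3 one of 0.71, given here as description.

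**Figure D4:**
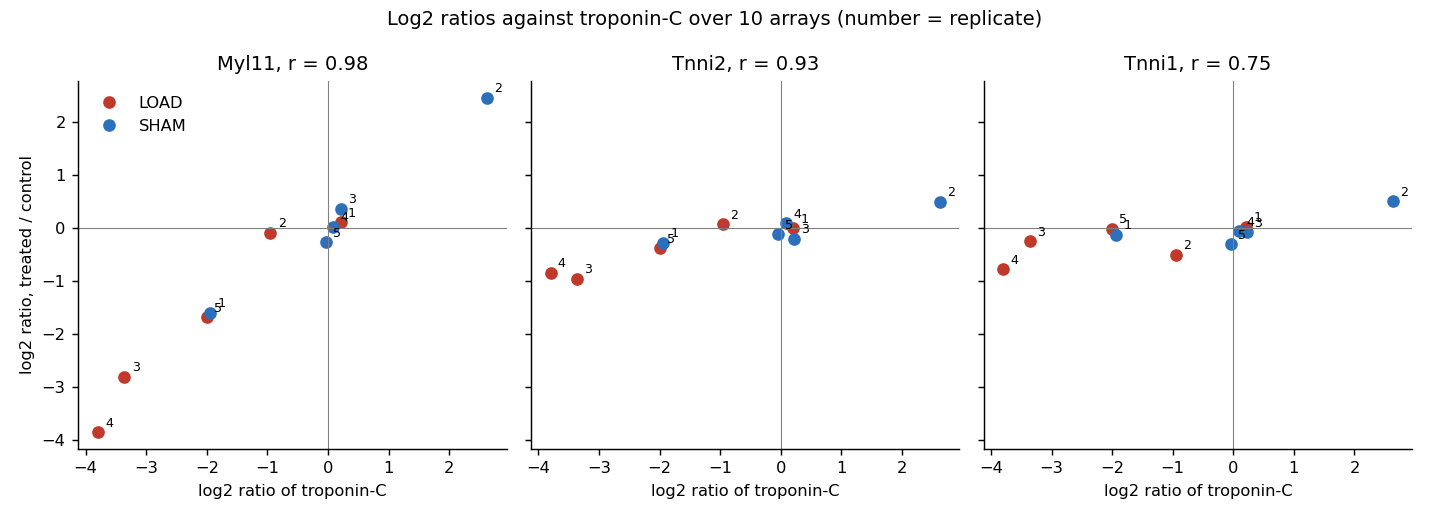
Log2 ratios, treated over control, of Myl11, Tnni2 and Tnni1 (vertical axis) against that of troponin-C (horizontal axis) on the 5 LOAD and 5 SHAM arrays, numbered by replicate. Myl11 runs along troponin-C with r = 0.98, Tnni2 follows with a smaller range (r = 0.93), and the r of 0.75 for Tnni1 falls to 0.18 without LOAD 4 and SHAM 2.

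The genes most alike in pattern were taken by their correlation with the mean ratio of the 6 RefSeq-named members that carried signal in at least 10 channels. This mean was close to Myl11 alone (r = 0.99) and Tnni2 (0.95), while Tnni1 (0.74), Myh3 (0.6), Myh6 (0.36) and Myl3 (-0.2) followed it less, so that likeness to it is mostly likeness to Myl11. Outside the members, the 5 closest accessions were V01224 (r = 0.97), U05675 (0.97), Capn3 (0.97), U04979 (0.96) and D00688 (0.95), over 10 arrays. Capn3 is the calpain protease of skeletal muscle. The study names U05675 as fibrinogen B beta and D00688 as monoamine oxidase A, and RefSeq gave no symbol for V01224 and U04979. The mean ratios of these 5 lay between -1.99 and -0.63 in LOAD and between 0.06 and 0.24 in SHAM. They were picked by likeness over these same arrays, so that these means are no separate support. Fibrinogen B beta and monoamine oxidase A were also chosen by the study on these arrays.

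Other genes of skeletal muscle mostly had ratios below 0 in LOAD as well. Of 21 further muscle genes listed, 11 were matched on the array, and 29 other sarcomere genes listed were not matched by symbol. In LOAD 8 of the 11 were lower and 3 higher, with a median of -0.19 beside -0.01 over all genes. The share of all genes below 0 was not counted. Of the 11 genes, 5 were lower with an unadjusted limma p under 0.05, where 1.72% of all genes were. None passed the false discovery rate. In SHAM 4 were lower and 7 higher, with a median of 0.06 beside 0 over all genes. Ckm, the muscle creatine kinase, averaged -1.38 ± 1.15 in LOAD with 5 of 5 arrays lower, Capn3 -0.63 ± 0.63, Pgam2, a muscle enzyme of glycolysis, -0.83 ± 0.7 on 4 arrays with a value, and Eno3, another, -0.66 ± 0.75 (SD). The 3 genes above 0 were Myog, a regulator of muscle differentiation, at 0.32 ± 0.65, Mstn, which restrains muscle growth, at 0.12 ± 0.21 and Slc2a4, the insulin-responsive glucose transporter, at 0.04 ± 0.22. Ckm was chosen by the study on these arrays. The intensities of 10 of the genes, without Pgam2, summed to between 8020 and 10100 in the loaded tibiae and between 8200 and 15500 in their controls, and to between 8740 and 11000 in the sham-loaded tibiae and between 7840 and 9780 in theirs. Myog was on in 2 of 20 channels and Mstn in 0. Of the markers of other cells, 2 picked after their values were seen had ratios above 0 in LOAD. Mepe, an osteocyte gene also chosen by the study on these arrays, averaged 0.86 ± 0.52 and the leukocyte gene Cd53 0.29 ± 0.18, with 0 of 5 arrays lower for each (limma, unadjusted p = 0.00235 and 0.00606, adjusted p = 1). From the same 2 lists, Phex averaged 0.13 ± 0.38, Lyz2 0.34 ± 1.1 and Pdpn -0.22 ± 0.54 in LOAD (SD). The cartilage gene Chad, on in 2 of 20 channels, averaged -0.29 ± 0.3, with 5 of 5 arrays lower (limma, unadjusted p = 0.0427). How much of the members' ratios follows from the amounts of muscle, bone and leukocyte RNA in each sample was not tested.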

How the data were processed

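Tibial RNA of 10 rats was compared on 10 spotted oligonucleotide arrays, the treated tibia (5 LOAD, 5 SHAM) against its contralateral control with dyes exchanged between arrays. Per the file headers, the authors quantified the spots with BlueFuse for Microarrays 2.0. The deposited files give an intensity for each channel, not normalized, and, as a fraction, a confidence and a P ON, with duplicate spots already combined. The deposited matrix gives log2 ratios that equal those of the intensities without normalization, and it was not used further.

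Spots were dropped where the confidence fell below 0.11, which touched no member. Log2 ratios were normalized by loess within each array (span 0.3, 4 iterations). The model, in limma 3.58.1 and R 4.3.3, was run over 4707 genes with at most 1 missing value, with a mean for LOAD and one for SHAM, with Benjamini-Hochberg adjustment over all of them and a false discovery rate of 20%. Levels and the comparisons between tibiae of different rats used Aquantile normalization and limma's single channel analysis over 4472 genes with no missing value (intraspot correlation 0.74). Permutation tests of LOAD against SHAM, over all splits of the arrays, were run in scipy 1.17.1. Permutation p-values of the correlations came from 100000 resamples in numpy 2.4.6. The limma fits were tested on simulated data, and the permutation tests were not.

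The members, the gene lists and the tests were chosen with earlier results of these data known. The members were named by accession, the most alike genes by the 5 highest correlations, and the muscle genes by the lowest p in LOAD. RefSeq named 1177 of 4803 accessions. Of the other lists, smooth muscle and vessel had 0 of 6 genes matched. The medians in LOAD were -0.13 for heart (1 of 4 genes), 0.13 for osteocyte (3 of 5), 0.05 for osteoblast and bone matrix (3 of 6), -0.22 for cartilage (3 of 4), -0.08 for erythroid (1 of 2) and 0.31 for marrow and leukocyte genes (2 of 4). Alternatives changed the normalization, the offset, the confidence and missing-value limits, the filter on dim spots, dye, scan and replicate terms, the prior, the group of SHAM 1, the dyes of LOAD 2 and the arrays included. Probe positions were not used here, and no coordinates of the probes are given.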

Additional observations from a re-analysis of the deposited data

Results flagged for a closer look

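In each set of 5 tibiae or 5 arrays the highest or lowest value was compared with its neighbour. Of 54 such groups 3 held a value far from the others, where 1 in 20 groups, or 2.7, would by chance. Troponin-C had a log2 level of 10.15 in the sham-loaded tibia of SHAM 2, with the next at 6.73. Myl11 had 10.05 in the same tibia, with the next at 7.34, so that these 2 values come from 1 RNA. Embryonic Myh3 had 8.97 in the sham-loaded tibia of SHAM 5, with the next at 9.5 and the highest at 9.66.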

How the results depend on the processing

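Of 1058 member values under the alternatives, 926 kept their sign. The LOAD means of troponin-C, Myl11, Tnni2 and Tnni1 were below 0 under every alternative that kept the gene, between -2.53 and -1.11, -2.11 and -0.82, -0.71 and -0.29, and -0.58 and -0.11. The filter on dim spots, which kept genes on in both channels of at least 5 arrays, dropped troponin-C, Myl11, Tnni3 and Tnnt2. With this filter Tnni2 and Tnni1 had an unadjusted limma p under 0.05 in LOAD, and 0 members did in LOAD versus SHAM. Calls at the false discovery rate of 20% changed under few. Without normalization 9 genes passed in LOAD and 2 in LOAD versus SHAM, where array medians ran from -1.19 to 0.8. Between the contralateral controls, where 0 genes passed, 3 passed with the scan batch as a block, 17 with the replicate block, and between 0 and 8 when single arrays were left out (8 without LOAD 3), with adjusted p-values from 0.564 up for the member troponin-C. Same-numbered arrays correlated between -0.41 and 0.07 in their deviations, so the numbers do not pair the rats. With the replicate block 0 genes passed in LOAD, in SHAM and in LOAD versus SHAM, and 0 between the treated tibiae. Leaving out single arrays moved troponin-C between -2.53 and -1.53 in LOAD and between -2.72 and -1.56 in LOAD versus SHAM. Exchanging the controls of the arrays numbered 4, chosen after seeing the data, gave -0.43 for troponin-C and -0.25 for Tnnt2 in LOAD versus SHAM. A P ON minimum of 0.9 left 100 of 120 signals over 180 channels. The causes were not tested, apart from the standard error shared by all genes without normalization. Troponin-C and Myl11 lay near background in most tibiae, which limits the size of their ratios.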
